A study of Homo sapiens with 6 samples.

Results

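Collagen chain genes were measured in NCI-H69 cells, a human line of small cell lung cancer, given the ABL kinase inhibitor GNF5 or its vehicle. The members are all genes whose symbol is COL, a type number, A and a chain number, which gave 44 genes of 60671 counted. NCI-H69 is an established line of the neuroendocrine type that grows as floating clusters, labelled wild type in both groups. GNF5 inhibits ABL kinases from outside the active site, through the pocket that normally holds a myristoyl group. RNA was sequenced from 3 libraries of cells kept for 48 h with DMSO and 3 libraries of cells kept for 48 h with GNF5, whose sample labels give 20 µM (the treatment protocol writes the same figure in millimolar). All libraries come from 1 cell line. The labels do not state whether replicates were grown apart, so every p-value reflects the spread among these 6 libraries alone, which may be technical. In a bulk library, fewer cells that express a gene and less RNA of it per cell cannot be told apart.

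Collagens are secreted or membrane proteins built from 3 chains wound into a triple helix, and each chain is the product of its own gene. Fibrillar collagens make the banded fibres of connective tissue and cartilage, type IV collagens make the sheet of basement membranes, and other classes decorate fibrils, form beaded filaments or span the cell membrane. Some chains pair with copies of themselves and others need a partner chain from another gene, so the set of chains that a cell transcribes limits which collagens it can assemble. Epithelial tumours usually get most of their fibrillar collagen from fibroblasts around them, which a cell line in culture lacks.

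The libraries held 46148701 to 60697602 counts. Levels are counts per 1000000 counts after TMM scaling (CPM), given with the SD over 3 libraries, and levels of different genes are set side by side only as reads per 1000 exon bases per 1000000 counts (RPKM). Changes are log2 fold changes of GNF5 against DMSO with their SE, and "rose" and "fell" mean an adjusted p under 0.05 in edgeR's quasi-likelihood test over 20734 genes. Markers of the cells were checked first. Over all cell types 32 of 42 markers were tested, and 71.9% of these rose or fell, against 61.6% of all genes tested. Of 10 neuroendocrine markers 5 rose, 2 fell and 3 were not called, and of 6 epithelial markers 3 rose, 2 fell and 1 was not called. The neuroendocrine factor INSM1 had 1403 ± 34 CPM with DMSO and 1464 ± 45.8 with GNF5 and was not called. Other neuroendocrine markers moved further, with SCG2 rising from 207.8 ± 1.64 to 431.5 ± 13.3 CPM and GRP falling from 44.1 ± 1.68 to 18.7 ± 1.58. The epithelial adhesion gene EPCAM rose from 160.8 ± 5.82 to 175.2 ± 1.22 CPM (adjusted p = 0.00267). Among the other epithelial markers CDH1 rose from 36.1 ± 2.19 to 65.2 ± 0.958 CPM and CLDN4 fell from 33.3 ± 1.31 to 22.8 ± 1.38. Of 8 fibroblast markers, 4 fell, 1 rose, 1 was not called and 2 were too low to test, and their summed level was 380.0 to 403.1 CPM with DMSO and 400.8 to 423.0 with GNF5. That sum was mostly POSTN (324.4 ± 10.7 CPM with DMSO), a secreted matrix protein, which was the 1 that rose. Of those that fell, FBLN1 went from 56.3 ± 2.78 to 20.2 ± 2.03 CPM and THY1 from 7.15 ± 0.249 to 4.02 ± 0.528. FAP, which marks activated fibroblasts, had 2 counts in all libraries and DCN 48. Of 7 mesenchymal markers 3 rose, 3 were not called and 1 was too low to test, and their sum was 142.1 to 146.9 CPM with DMSO and 164.9 to 173.9 with GNF5. SNAI2 rose from 45.4 ± 0.877 to 57.3 ± 1.63 CPM and TWIST1 from 30.2 ± 1.98 to 43.9 ± 2.37, both transcription factors of mesenchymal cells, while the intermediate filament gene VIM had 3 counts in all. Of 5 endothelial markers 2 fell and 3 were too low to test, with KDR at 0 counts and a summed level of 3.77 to 4.44 CPM with DMSO and 1.41 to 1.79 with GNF5. Of 6 leukocyte markers 1 fell, 1 was not called and 4 were too low to test, with CD3E at 0 counts and sums of 4.62 to 4.93 and 3.18 to 4.05 CPM. The part of other cell types in the results below was not tested beyond these values.

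NCI-H69 cells transcribed the collagen chains at very unequal levels, and 1 of them made up most of the summed RPKM with DMSO. COL2A1, the chain of the type II collagen of cartilage, had 167.6 ± 3.69 RPKM with DMSO, above 99.1% of the protein-coding genes tested. It made up 72.4% of the summed RPKM of all 44 chains with DMSO and 47.8% with GNF5. Far below it followed COL4A6 (12.3 ± 0.0551 RPKM), COL1A2 (11.0 ± 0.24), COL4A5 (9.88 ± 0.216), COL22A1 (5.37 ± 0.174) and COL9A2 (5.05 ± 0.18). Next came COL7A1 (4.07 ± 0.37), COL4A4 (3.48 ± 0.103) and COL21A1 (3.35 ± 0.131), and the SDs overlapped between COL22A1 and COL9A2 and between COL4A4 and COL21A1. With DMSO 12 chains reached 1 RPKM, and 12 did so with GNF5. At the other end, 5 chains had 0 counts in all 6 libraries and 10 more had 1 to 44 counts in all libraries together.

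Collagen RNA as a whole was lower in each GNF5 library than in any DMSO library, and COL2A1 held most of the difference. All chains together had 1731, 1687 and 1693 counts per 1000000 library counts in the DMSO libraries and 781.3, 890.6 and 850.3 in the GNF5 libraries. The groups did not overlap, and the log2 ratio of their means was -1.02 (exact permutation test, 2-sided, p = 0.1, the smallest that 3 against 3 libraries can give). Without COL2A1 the other chains had 589.6 ± 3.91 counts per 1000000 in the DMSO libraries and 507.1 ± 26.7 in the GNF5 libraries, a log2 ratio of -0.22 (exact permutation p = 0.1). COL2A1 held 65% to 66.2% of all collagen counts in the DMSO libraries and 38.7% to 40.2% in the GNF5 libraries. In the bar plot of summed counts this shows as a COL2A1 segment that shrinks while the segment of the other chains keeps most of its height.

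**Figure D1:**
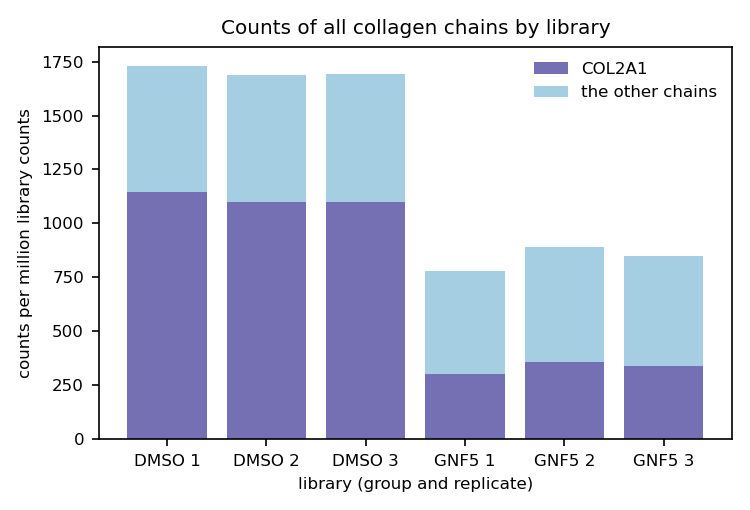
Counts of all 44 collagen chains per 1000000 library counts (vertical axis) in each of the 6 libraries (horizontal axis), split into COL2A1 and the other chains. The DMSO bars stand at 1687 to 1731 and the GNF5 bars at 781.3 to 890.6.

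Of the 44 chains, 29 passed the filter on low counts, 7 of them rose, 15 fell and 7 were not called. That is 75.9% of those tested, against 61.6% of all genes tested. By direction, 24.1% of the tested chains rose and 51.7% fell, where 31% and 30.7% of all genes did. The median log2 fold change was -0.17 for the tested chains and 0.01 for all genes, and the median absolute change was 0.55 and 0.34. The values of the 2 groups did not overlap for 19 of 29 chains, or 65.5%, against 65.9% of all genes. Changes of at least 2-fold were 4 rises (COL15A1, COL16A1, COL14A1 and COL27A1) and 3 falls (COL11A1, COL2A1 and COL24A1), or 13.8% and 10.3% of the tested chains, against 4.95% and 6.69% of all genes. Tested against a change of 1.5-fold instead of none, 3 chains rose and 4 fell, or 10.3% and 13.8%, against 5.98% and 7.52% of all genes. The filter asked for its level in 3 libraries of any group. COL11A1 reached it in 3 DMSO libraries and 1 GNF5 library, and COL14A1, COL27A1 and COL8A2 in 2 and 3. COL15A1 reached it in 0 and 3, so a difference was built into its entry. The other chains named here entered with unequal numbers of libraries from the groups. Among the 24 chains that reached the filter level in every library, 4 rose, 14 fell and 6 were not called, which is 16.7% and 58.3%, against 33.1% and 31.5% of the 18382 genes that did so. Of these 24, 1 rose at least 2-fold (COL16A1) and 2 fell at least 2-fold (COL2A1 and COL24A1), or 4.17% and 8.33%, against 3.78% and 4.63% of those genes.

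**Figure D2:**
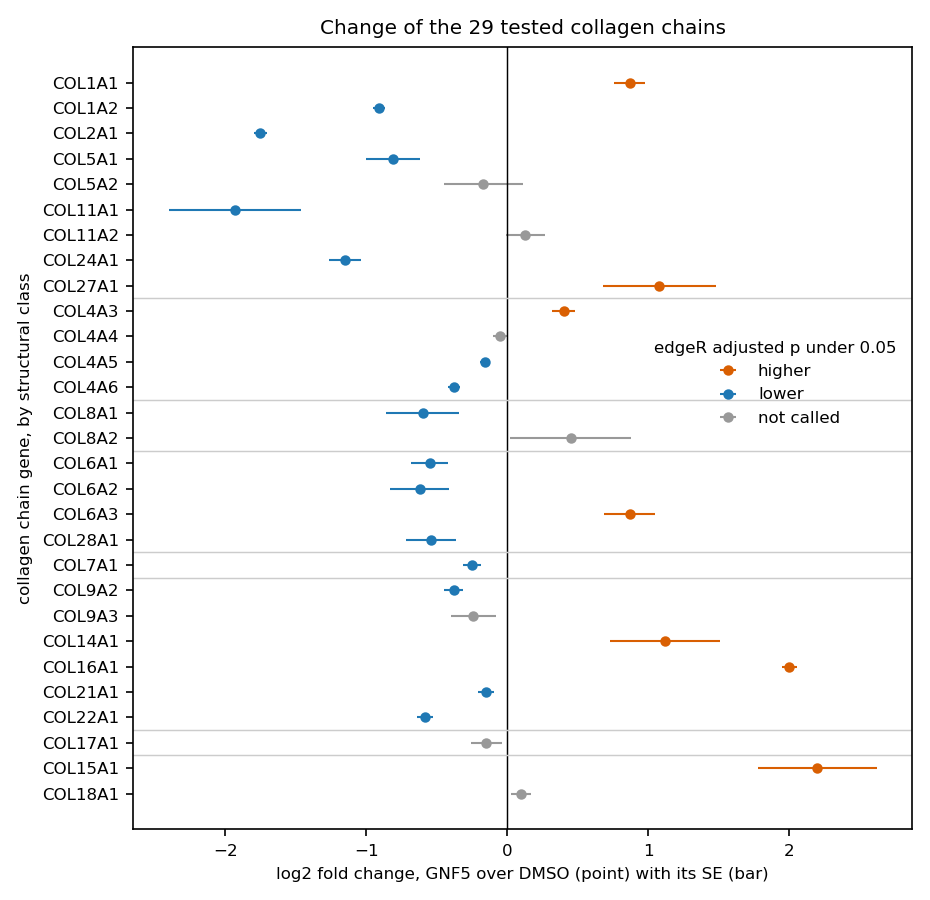
Log2 fold change of GNF5 over DMSO (horizontal axis) with its SE for the 29 tested collagen chains (vertical axis), grouped by structural class and coloured by call. Chains of 1 class point both ways, with COL2A1 at -1.75 and COL1A1 at 0.87 among the fibrillar chains and COL16A1 at 2.00 among the fibril-associated ones.

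The fibrillar class held the most abundant chain and the largest loss. Of its 11 genes, 9 were tested, 5 fell, 2 rose and 2 were not called. COL2A1 (ENSG00000139219, chromosome 12, 47972967 to 48004554, minus strand, GRCh38) had 1145, 1101 and 1104 CPM in the DMSO libraries and 302.6, 356.6 and 340.5 in the GNF5 libraries. The lowest DMSO value was far above the highest GNF5 value. COL2A1 fell by 1.75 ± 0.045 on the log2 scale, which is 3.35-fold (adjusted p = 1.07e-18). In type II collagen its product forms trimers of 3 identical chains.

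The chains of type I collagen, the main fibre of skin and bone, moved apart. COL1A2 (ENSG00000164692, chromosome 7, 94394895 to 94431227), which encodes the alpha 2 chain, had 119, 116.7 and 121.8 CPM with DMSO and 59.3, 65.7 and 65.4 with GNF5. It fell by 0.91 ± 0.041 (adjusted p = 2.66e-17). COL1A1 (ENSG00000108821, chromosome 17, 50184101 to 50201632), which encodes the alpha 1 chain, was low and had 2.98, 2.99 and 2.71 CPM with DMSO but 5.09, 5.69 and 5.06 with GNF5. It rose by 0.87 ± 0.11 (adjusted p = 1.73e-07). Neither gene had overlapping groups. Type I collagen of connective tissue uses more alpha 1 than alpha 2 chains, yet the RPKM of COL1A1 was only 0.03, 0.0308 and 0.0267 of that of COL1A2 in the DMSO libraries. With GNF5 that ratio was 0.103, 0.104 and 0.0929, a log2 shift of 1.78 with no overlap (exact permutation test, 2-sided, p = 0.1, or 0.16 after Benjamini-Hochberg adjustment over 8 pairs of partner chains).

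Among the minor fibrillar chains some fell, COL27A1 was called higher and others were not called or were too low to test. COL24A1 (ENSG00000171502, chromosome 1, 85729233 to 86156943) had 6.78, 6.73 and 6.68 CPM with DMSO and 2.62, 3.06 and 3.44 with GNF5, and fell by 1.15 ± 0.11 (adjusted p = 5.44e-10). COL5A1, a chain of type V collagen, had 1.98, 2.22 and 2.48 CPM with DMSO and 0.851, 1.57 and 1.43 with GNF5, and fell by 0.81 ± 0.19 (adjusted p = 0.000628). Its partner COL5A2 had 0.661 ± 0.161 and 0.587 ± 0.0565 CPM with overlapping values (log2 fold change -0.17 ± 0.28, adjusted p = 0.614). The RPKM of COL5A1 relative to COL5A2 was 1.95 to 2.83 with DMSO and 0.964 to 1.76 with GNF5, a log2 shift of -0.69 without overlap (exact permutation p = 0.1, adjusted 0.16).

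COL11A1 and COL11A2 encode chains of type XI collagen, which seeds the fibrils of cartilage together with type II. The first fell and the second was not called. COL11A1 had 19, 35 and 36 counts in the DMSO libraries and 3, 3 and 15 in the GNF5 libraries, a log2 fold change of -1.93 ± 0.47 (adjusted p = 0.000773). COL11A2, with 3.12, 3.44 and 2.95 CPM against 2.67, 4.23 and 3.55, had overlapping groups and was not called (0.13 ± 0.14, adjusted p = 0.464). Their RPKM ratio was 0.08 to 0.157 with DMSO and 0.0113 to 0.0598 with GNF5, a log2 shift of -2.45 without overlap (exact permutation p = 0.1, adjusted 0.16) that rests on few COL11A1 counts. The ratio of COL11A1 to COL5A2, which can share a trimer, had overlapping groups (log2 shift -2.19, exact permutation p = 0.2, adjusted 0.267). COL27A1, a chain of developing cartilage, had 17, 30 and 4 counts with DMSO and 38, 23 and 37 with GNF5, which overlap. It was called higher (1.08 ± 0.4, adjusted p = 0.0203), but not without DMSO replicate 3 (0.62, adjusted p = 0.141), GNF5 replicate 1 (adjusted p = 0.0571) or GNF5 replicate 3 (adjusted p = 0.0741). COL3A1, the type III chain that fibroblasts make with type I, had 0 counts in all 6 libraries, and COL5A3 had 1 count. An approximate upper limit for 0 counts was set at 3 counts over the 6 libraries together, or 0.00903 CPM. Such a limit takes account of counting error alone.

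**Figure D3:**
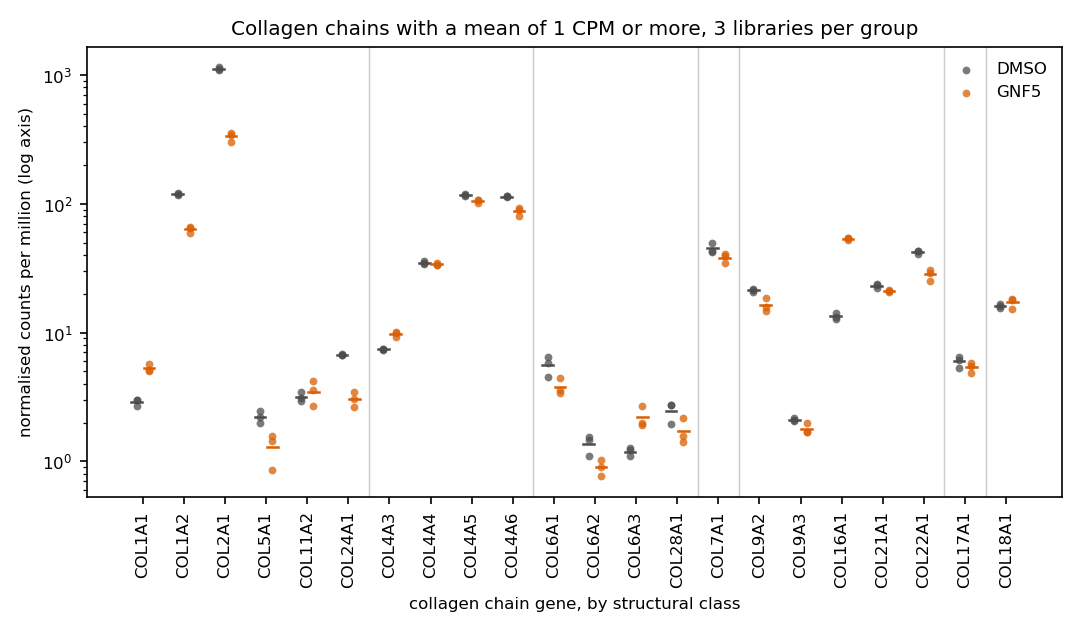
CPM on a log axis of the 22 chains with a mean of 1 CPM or more, with 1 point per library, a bar at the mean of each group and vertical lines between structural classes. COL2A1 stands highest in both groups, COL16A1 has the widest gap upward and the points of COL4A4, COL11A2, COL28A1, COL17A1 and COL18A1 overlap between the groups.

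The type IV chains of basement membrane came from 2 of their 3 gene pairs. In the genome these 6 genes lie head to head, and each pair is transcribed outward from a shared stretch between the start sites. COL4A1 and COL4A2, which make the type IV network present in nearly every basement membrane, had 0 counts in all 6 libraries. The same approximate limit of 0.00903 CPM applies to both. COL4A3 with COL4A4 and COL4A5 with COL4A6, the chains of specialised membranes such as those of kidney and lung, were all transcribed. The stretches between the starts are shown because each lies upstream of both genes of its pair. All are on the plus strand of GRCh38 (RefSeq, GRCh38.p14), in lower case with capitals at each GC box (GGGCGG or its reverse complement CCGCCC) and CCAAT box (CCAAT or its reverse complement ATTGG).
COL4A1 and COL4A2, chr13:110307158-110307283, between the 2 RefSeq starts: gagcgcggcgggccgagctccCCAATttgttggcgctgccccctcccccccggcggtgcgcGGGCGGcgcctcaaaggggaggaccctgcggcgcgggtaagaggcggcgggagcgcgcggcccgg
COL4A4 and COL4A3, chr2:227164454-227164623, between the 2 gene models of the counting annotation: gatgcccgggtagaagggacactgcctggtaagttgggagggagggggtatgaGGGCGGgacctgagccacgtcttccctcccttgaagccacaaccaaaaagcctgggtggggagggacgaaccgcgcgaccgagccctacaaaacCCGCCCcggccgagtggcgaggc
COL4A6 and COL4A5, chrX:108439588-108439837, the 250 bases before the COL4A5 start: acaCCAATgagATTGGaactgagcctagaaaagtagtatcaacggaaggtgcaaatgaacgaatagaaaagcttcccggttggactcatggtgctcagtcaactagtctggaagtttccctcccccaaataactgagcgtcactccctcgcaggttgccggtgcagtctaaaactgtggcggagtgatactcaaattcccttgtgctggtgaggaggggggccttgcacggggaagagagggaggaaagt

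The stretches differ in length and in how their ends are set, so base composition was compared in equal windows from 250 bases before to 50 after a RefSeq start. CG dinucleotides numbered 45 in the windows of COL4A1 and COL4A2, 29 in that of COL4A4, 24 in that of COL4A3 and 8 in that of COL4A5, against a median of 14 over all 35116 promoters. G and C made up 76.7% of the COL4A1 window and 74% of the COL4A4 window, against a median of 58.7%. Windows as rich in CG dinucleotides occurred at other chains too, with 46 for 1 start of COL18A1 and 45 for COL15A1. The other COL18A1 start had 10, and counts per gene do not show which start was used. COL15A1 itself was low, at 0.109 ± 0.0458 CPM with DMSO and 0.511 ± 0.0441 with GNF5. Undetected COL6A6 had 24, the number of COL4A3. Its window ends at 130517226 on chromosome 3, however, well before the counted gene model begins at 130560334. GC boxes numbered 1, 2 and 0 in these stretches and CCAAT boxes 1, 0 and 2. In the equal windows, which at 300 bases are longer than these stretches, 45% of all promoters held a GC box on either strand. A CCAAT box was held by 34.6%. A match is a description of the letters, and the data hold no measure of methylation or binding there. RefSeq windows were found for 32 of the 44 chains.

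Of the 4 transcribed type IV genes 1 rose, 2 fell and 1 was not called. COL4A3 (ENSG00000169031, chromosome 2, 227164624 to 227314792) had 7.3, 7.42 and 7.49 CPM with DMSO and 10.1, 9.94 and 9.3 with GNF5, and rose by 0.40 ± 0.081 (adjusted p = 0.000108). Its neighbour COL4A4 (ENSG00000081052, chromosome 2, 227002714 to 227164453) had 36.1, 34.6 and 34.1 CPM with DMSO and 33.5, 34.4 and 33.4 with GNF5, and was not called (-0.05 ± 0.047, adjusted p = 0.377). The RPKM of COL4A3 relative to COL4A4 was 0.224 to 0.244 in the DMSO libraries and 0.308 to 0.333 in the GNF5 libraries, a log2 shift of 0.45 with no overlap (exact permutation test, 2-sided, p = 0.1, adjusted 0.16).

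Both genes of the pair on the X chromosome fell. COL4A5 (ENSG00000188153, 108439838 to 108697545) had 114.5, 117.7 and 119.5 CPM with DMSO and 101.3, 107.3 and 106.2 with GNF5, and fell by 0.16 ± 0.036 (adjusted p = 0.00035). COL4A6 (ENSG00000197565, 108155607 to 108439497) had 114, 113.3 and 114.3 CPM with DMSO and 80.5, 92.8 and 88.7 with GNF5, and fell by 0.38 ± 0.042 (adjusted p = 4.83e-09). The RPKM ratio of COL4A5 to COL4A6 was 0.785 to 0.818 with DMSO and 0.904 to 0.984 with GNF5, without overlap (log2 shift 0.23, exact permutation p = 0.1, adjusted 0.16). COL4A6 thus fell more than COL4A5. Whether the pair came nearer to equal levels depends on the exon lengths used in the RPKM, since the CPM of the 2 genes moved apart. The alpha 5 chain can join alpha 3 and alpha 4 or alpha 6, and all 4 genes reached 1 RPKM with GNF5 (9.41, 8.84, 3.36 and 1.08 for COL4A6, COL4A5, COL4A4 and COL4A3).

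**Figure D4:**
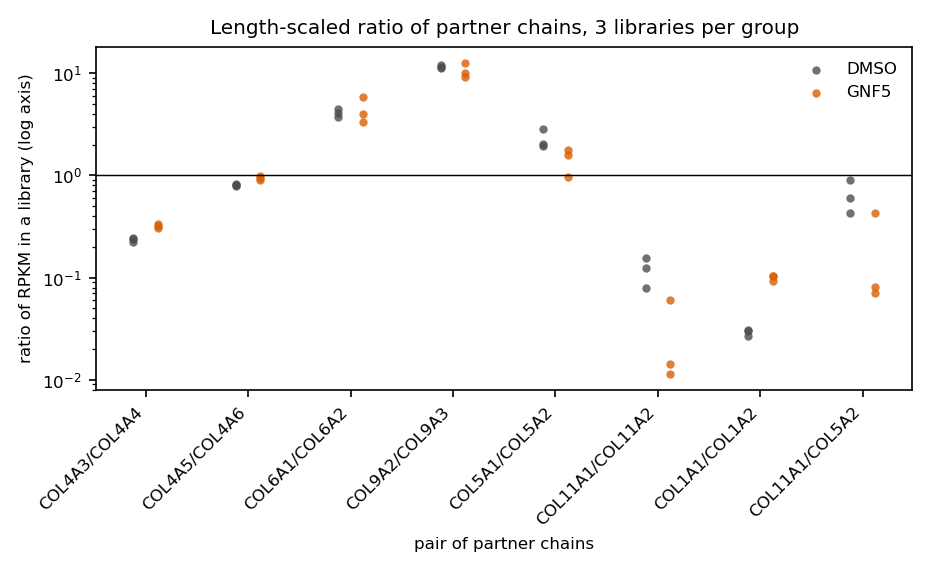
Ratio of the RPKM of 2 partner chains on a log axis, with 1 point per library, for the 8 pairs in which both chains were tested, and a line at equal levels. The ratios of COL1A1 to COL1A2 lie at 0.0267 to 0.0308 with DMSO and 0.0929 to 0.104 with GNF5, and those of COL6A1 to COL6A2 overlap between the groups.

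Fibril-associated collagens with interrupted helices sit on the surface of fibrils and link them to other matrix parts. Of 10 genes, 6 were tested, 2 rose, 3 fell and 1 was not called. COL16A1 (ENSG00000084636, chromosome 1, 31652263 to 31704319) had 13.2, 12.8 and 14.3 CPM with DMSO and 54.6, 54.4 and 52.1 with GNF5. It rose by 2.00 ± 0.052, which is 4.0-fold (adjusted p = 1.16e-22), the lowest p-value of the 29 chains. By RPKM it moved from 11th to 5th of the 44 chains, from 1.45 ± 0.0811 to 5.80 ± 0.154. Type XVI collagen lies at cell surfaces and in cartilage and binds integrins.

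COL22A1 and COL21A1 fell. COL22A1 (chromosome 8, 138588235 to 138914041), found at tissue junctions such as those of muscle and tendon, had 42.9, 43.2 and 40.7 CPM with DMSO and 25, 30.8 and 29 with GNF5. It fell by 0.58 ± 0.057 (adjusted p = 1.06e-09). COL21A1 (chromosome 6, 56056590 to 56394094), of vessel walls, had 23.9, 22.2 and 23.4 CPM against 20.5, 21.3 and 21. Its fall of 0.15 ± 0.055 (adjusted p = 0.0229) was lost without DMSO replicate 1 (adjusted p = 0.0851) or 3 (0.0611), or without GNF5 replicate 1 (0.0612) or 3 (0.0564).

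Type IX collagen coats the type II fibrils of cartilage and is a trimer of COL9A1, COL9A2 and COL9A3 products. COL9A2 (chromosome 1, 40300489 to 40317813) had 21.4, 20.5 and 21.9 CPM with DMSO and 14.7, 18.6 and 15.7 with GNF5, and fell by 0.38 ± 0.07 (adjusted p = 2.77e-05). COL9A3 had 2.05, 2.08 and 2.17 CPM against 1.69, 1.68 and 1.99, which do not overlap, but it was not called (-0.24 ± 0.16, adjusted p = 0.196). The ratio of COL9A2 to COL9A3 overlapped between the groups (log2 shift -0.14, exact permutation p = 0.4, adjusted 0.457). COL9A1 summed to only 12 counts with DMSO and 8 with GNF5, too few to test. The 3 partners thus stood at 5.05, 0.434 and 0.00926 RPKM with DMSO in the order COL9A2, COL9A3 and COL9A1.

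COL14A1, which regulates fibril growth, had 16, 26 and 8 counts with DMSO and 37, 43 and 17 with GNF5, with overlapping groups. Its call (1.12 ± 0.39, adjusted p = 0.0145) was lost without DMSO replicate 3 (0.79, adjusted p = 0.104) or GNF5 replicate 2 (0.75, adjusted p = 0.144). COL20A1 had 20, 3 and 19 counts with DMSO and 2, 0 and 0 with GNF5 but did not pass the filter. With no filter it was called lower (adjusted p = 1.38e-05), the 1 chain of the 10 low ones that was, and no fold is given at so few counts. COL12A1 had 13 counts in all libraries and COL19A1 had 1.

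Of the type VI chains, which assemble into beaded filaments around cells, 2 fell and 1 rose. COL6A1 (chromosome 21, 45981769 to 46005050) had 4.48, 6.48 and 5.78 CPM with DMSO and 4.44, 3.41 and 3.57 with GNF5, and fell by 0.55 ± 0.13 (adjusted p = 0.000547). COL6A2, its neighbour on chromosome 21, had 1.1, 1.47 and 1.54 CPM against 0.766, 1.03 and 0.897, and fell by 0.62 ± 0.21 (adjusted p = 0.0143). The COL6A2 call was lost without DMSO replicate 2 (adjusted p = 0.0504) or 3 (0.0709) or without GNF5 replicate 1 (0.071). COL6A3, the third chain of the same trimer, had 1.22, 1.26 and 1.09 CPM with DMSO and 1.99, 2.67 and 1.91 with GNF5, and rose by 0.87 ± 0.18 (adjusted p = 0.000126). The ratio of COL6A1 to COL6A2 was 3.76 to 4.42 with DMSO and 3.31 to 5.83 with GNF5, which overlap (log2 shift 0.06, exact permutation p = 0.9, adjusted 0.9). COL6A5 and COL6A6, which can replace COL6A3 in the trimer, had 0 counts in all libraries. COL28A1, a related chain, had 1.95, 2.74 and 2.72 CPM with DMSO and 1.57, 2.16 and 1.41 with GNF5, which overlap. It fell by 0.54 ± 0.18 (adjusted p = 0.00898), a call lost without GNF5 replicate 3 (adjusted p = 0.0674).

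The chains of epithelial anchoring structures were COL7A1, which fell, and COL17A1, which was not called. COL7A1 (ENSG00000114270, chromosome 3, 48564073 to 48595267), which forms the anchoring fibrils beneath epithelia, had 42.3, 49.8 and 43.2 CPM with DMSO and 34.4, 40.9 and 39.1 with GNF5. It fell by 0.25 ± 0.065 (adjusted p = 0.00276). COL17A1, the transmembrane collagen of hemidesmosomes, had 6.13, 5.32 and 6.45 CPM against 4.89, 5.82 and 5.48, with overlapping groups, and was not called (-0.15 ± 0.11, adjusted p = 0.227). The other transmembrane chains, COL13A1, COL23A1 and COL25A1, had 18, 13 and 1 counts in all libraries.

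The multiplexins are basement membrane collagens whose ends can be cut off as separate fragments, such as endostatin from COL18A1. COL18A1 (chromosome 21, 45405165 to 45513720) had 16, 15.4 and 16.8 CPM with DMSO and 15.3, 18.0 and 18.3 with GNF5, and was not called (0.10 ± 0.07, adjusted p = 0.24). Without GNF5 replicate 1 it was called higher (0.18, adjusted p = 0.0266). COL15A1 (chromosome 9, 98943179 to 99070792), its close relative, had 9, 6 and 4 counts with DMSO and 29, 26 and 25 with GNF5. It rose by 2.20 ± 0.42 (adjusted p = 3.93e-05) from a level of 0.109 ± 0.0458 CPM, at which no DMSO library reached the filter level.

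The short-chain network collagens were near the limit of the test. COL8A1, of vessel and eye matrix, had group means of 0.997 ± 0.255 and 0.664 ± 0.179 CPM, and its groups overlapped. Its call (-0.60 ± 0.26, adjusted p = 0.0467) was lost with DESeq2 (adjusted p = 0.091), with no filter (0.0542) and without DMSO replicate 2 (0.193) or 3 (0.131) or GNF5 replicate 1 (0.117) or 3 (0.181). COL8A2 had 33 counts with DMSO and 41 with GNF5 and was not called (0.45 ± 0.43, adjusted p = 0.368). COL10A1, the chain of hypertrophic cartilage, had 2 counts in all libraries, and COL26A1, which belongs to no class above, had 9.

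The 44 genes span 17.3 to 494.0 kb. Over the 29 tested chains, Pearson's r between the log10 span and the log2 fold change was -0.06 and Spearman's rho -0.14, given as a description across genes that share the same 6 libraries. Between the log2 RPKM and the log2 fold change r was -0.31 and rho -0.28.

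Genes that modify, fold, cut, link, bind and break down collagen were taken from a list of 62, of which 52 were tested, 26 rose, 14 fell and 12 were not called. That is 50% rising and 26.9% falling, against 31% and 30.7% of all genes, with a median log2 fold change of 0.15. Rising and falling genes were spread unevenly over the roles, as the plot of these genes shows, and that spread was not tested.

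**Figure D5:**
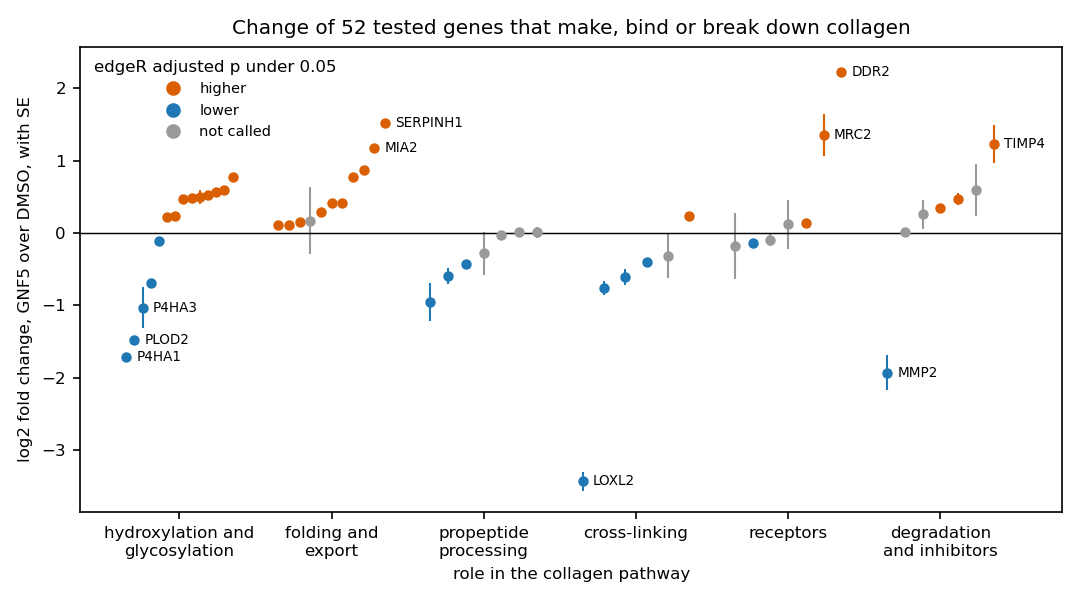
Log2 fold change of GNF5 over DMSO with its SE (vertical axis) for the 52 tested genes of the collagen pathway by role (horizontal axis), coloured by call, with names at changes of at least 2-fold. Of 11 folding and export genes 10 rose and none fell, while 4 of 6 cross-linking genes fell.

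Enzymes that hydroxylate and glycosylate new chains were split, with 9 of 14 tested genes rising and 5 falling. P4HA1, a catalytic subunit of the prolyl hydroxylase that stabilises the triple helix, fell from 97.7 ± 7.35 to 29.8 ± 0.39 CPM (-1.71 ± 0.049). PLOD2, the lysyl hydroxylase of the chain ends, fell from 178.9 ± 8.41 to 64.0 ± 0.944 CPM (-1.48 ± 0.039). CRTAP and PPIB, both in the prolyl 3-hydroxylation complex, rose by 0.60 ± 0.04 and 0.57 ± 0.038. P4HA2, the paralogue of P4HA1 and named here after its values were seen, rose by 0.77 ± 0.053.

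Genes that fold collagen and carry it out of the endoplasmic reticulum rose, 10 of 11. SERPINH1, the chaperone that binds collagen triple helices, rose from 15.8 ± 0.951 to 45.2 ± 3.94 CPM (1.52 ± 0.06). MIA2 and MIA3, partner proteins that load bulky collagen into transport carriers, rose by 1.18 ± 0.046 and 0.87 ± 0.041, and SEC24D, a coat protein of those carriers, by 0.78 ± 0.041. CREB3L1 was the member not called (0.17 ± 0.46, adjusted p = 0.772).

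Outside the cell, 42.9% of the tested propeptide processing genes and 83.3% of the cross-linking genes rose or fell, against 61.6% of all genes tested. Of 7 tested propeptide processing genes 3 fell and none rose, with ADAMTS14, which cuts the amino end, at -0.43 ± 0.054 and the enhancer PCOLCE at -0.60 ± 0.11. Of 6 cross-linking genes 4 fell. LOXL2, a lysyl oxidase, had 10.7 ± 1.46 CPM with DMSO and 0.994 ± 0.0501 with GNF5 (-3.43 ± 0.13), and LOXL4, LOX and LOXL1 fell by 0.76, 0.40 and 0.61. PXDN, the peroxidase that links type IV collagen, rose by 0.23 ± 0.048, and LOXL3 was not called (-0.32 ± 0.3, adjusted p = 0.354).

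Among 10 collagen receptors, 3 rose, 1 fell and 3 were not called, with 3 too low to test. The share called was 57.1% of the tested receptors and also of the tested degradation genes and inhibitors, near the 61.6% of all genes. DDR2, a receptor tyrosine kinase activated by fibrillar collagen, rose from 8.86 ± 0.727 to 41.4 ± 1.28 CPM (2.22 ± 0.06, adjusted p = 2.73e-22). Its relative DDR1, which most collagens including type IV activate, went from 117.8 ± 0.931 to 130.2 ± 2.21 CPM (0.14 ± 0.034, adjusted p = 0.00057). The integrin chain ITGB1 was the receptor gene that fell (-0.14 ± 0.034, adjusted p = 0.000853). Of 12 degradation genes and inhibitors 7 were tested and 3 rose, among them MMP16 (0.34 ± 0.047) and the inhibitor TIMP1 (0.47 ± 0.086), and MMP2, a gelatinase at 1.56 ± 0.19 CPM with DMSO, was the 1 that fell (-1.93 ± 0.24).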

How the data were processed

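RNA of 6 NCI-H69 libraries was measured. Per the file headers, the authors deposited raw counts per gene, made with featureCounts 1.6.1 from read pairs, reverse-stranded, over exons of the Ensembl release 101 annotation of GRCh38, and gene lengths. By its default, featureCounts leaves out reads that map to several places, which undercounts near-identical genes. Also in the submitters' processing notes, without roles or versions, stand GRCh37, STAR, Trim Galore, DESeq2 and HTSeq; which build the aligner used is not given there. Symbols were matched for 60401 of 60671 IDs.

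GNF5 was compared with DMSO by edgeR 4.0.16 (R 4.3.3) with TMM factors, the default filter (minimum count 10), a robust quasi-likelihood test, no covariate and Benjamini-Hochberg adjustment over 20734 genes. The SE is the log2 fold change divided by the square root of F. RPKM uses the deposited length of all exons of a gene, which understates genes with many isoforms. The fit was tested on simulated data with far fewer changed genes than were called here. That simulation therefore gives no error rate for these data. Within a group, no 2 libraries were alike beyond counting noise (chi-square per degree of freedom 3.02 to 8.0).

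Members and gene lists were chosen with earlier results of these data known. Chains with a mean of 1 CPM are given per library. In each pathway role, up to 4 called genes of that level with the lowest p are named, as are single genes that moved against their role or were not called. Alternatives were DESeq2 1.42.0, other scalings and filters, a replicate block, a test against a 1.5-fold change and leaving out each library.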

Additional observations from a re-analysis of the deposited data

How the results depend on the processing

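The counts of chains that rose (7) and fell (15) stayed within 1.5 times under the other scalings, no filter, DESeq2 (7 and 14) and the replicate block. The stricter filter left 4 rising chains, since 3 low chains were no longer tested, and the test against a 1.5-fold change left 3 rising and 4 falling. The latter test gave 1240 rising and 1560 falling of all genes and 8 and 5 of the pathway genes, and 15 chains lost their call in it. Leaving out 1 library gave 5 to 7 rising and 12 to 16 falling chains. COL20A1 was among the falling ones in the 4 such fits that tested it (edgeR adjusted p = 2.54e-05 to 0.00454). It reached the filter level in 2 DMSO libraries and 0 GNF5 libraries, so a difference was built into its entry there. With no filter, the 15 falling chains had gained COL20A1 and lost COL8A1. Over all other alternatives 22 of the 29 chains kept their call or lack of one, and no chain changed its direction past the threshold. The fall of summed collagen RNA (log2 ratio -1.02) was -0.22 without COL2A1. The shift of COL11A1 against COL11A2 (-2.45) was -0.55 with 0.1 RPKM added, and that of COL1A1 against COL1A2 (1.78) was 1.6, by construction, since the added value weighs on low chains.

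Replicate numbers are shared between the groups, but same-numbered libraries did not deviate together (correlations of -0.0157, 0.0159 and 0.00082 over 20734 genes), so the numbers were not taken to pair the samples. With the replicate block, 7 chains rose and 14 fell, COL8A1 being lost (adjusted p = 0.0509), and 6279 and 6196 of all genes did. Of the 15 chains not tested, 5 had no counts and 10 could be fitted with no filter, where COL20A1 was called lower (adjusted p = 1.38e-05) and the other 9 were not called at this depth.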

Other observations

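The undetected type IV pair on chromosome 13 has transcribed neighbours. These genes were chosen after the counts of COL4A1 and COL4A2 were seen, as the 3 nearest protein-coding genes on each side. On the side of COL4A1, IRS2, an adaptor of insulin signalling, had 21.1 ± 0.621 CPM with DMSO and 36.4 ± 3.29 with GNF5 (log2 fold change 0.79, edgeR adjusted p = 1.5e-12). On the side of COL4A2, NAXD, a metabolite repair enzyme, had 72.1 ± 2.24 and 78.4 ± 1.13 CPM, and CARS2, a mitochondrial transfer RNA synthetase, 91.4 ± 2.44 and 69.4 ± 3.19. RAB20, the gene next to COL4A2, was low, with 89 counts summed for DMSO and 22 for GNF5. MYO16 had 0 counts and TNFSF13B 13 and 16, both on the side of COL4A1.

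The undetected COL6A5 and COL6A6 lie side by side on chromosome 3, next to PIK3R4, which had 26.8 ± 1.19 CPM with DMSO and 23.9 ± 0.875 with GNF5. On their other side, ALG1L2 had 1 count in each group and TRH had 0. Beyond these, TMCC1 had 14.6 ± 0.64 CPM with DMSO and 19.4 ± 1.27 with GNF5. COL3A1 lies beside COL5A2 on chromosome 2, and COL5A2 summed to 115 counts for DMSO and 92 for GNF5 where COL3A1 had 0. Farther out, GULP1 had 38.1 ± 1.19 CPM with DMSO and 59.9 ± 1.98 with GNF5, and WDR75 26.1 ± 0.29 and 31.6 ± 0.209. Other near genes were low, with DIRC1 at 0 counts, SLC40A1 at 6 and 2, and TFPI at 127 and 171.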
